A study of Mus musculus with 11 samples.

Results

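Collagens are described here as a family of transcripts in the quadriceps of aged mice. The members were the protein-coding genes whose whole symbol is Col, a number, a and a number. Of 44 such genes, all of them found in the count table of 53465 genes, 36 had 10 or more counts in at least 6 of the 11 libraries and were kept. All mice were of the strain written C57L/6JRj in the labels and were treated for 10 weeks from an age of 18 months. The 5 control libraries came from mice given the solvent DMSO, and the 6 treated libraries from mice given myriocin, a fungal inhibitor of the first enzyme of de novo sphingolipid synthesis. RNA was taken from whole quadriceps, a large thigh muscle. The comparison asks how transcripts of aged muscle differ after myriocin. Whether every library is 1 mouse of its own is not stated, so the p-values reflect only how these samples vary, which may be technical, and neither sex nor dose is stated.

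Each collagen is built from 3 alpha chains that wind into a triple helix of repeated glycine triplets. Fibrillar collagens form the tensile fibres of connective tissue around muscle bundles, tendon and vessel walls. Basement membrane collagens form the sheet that wraps each muscle fibre and capillary, and beaded filament collagens (type VI) link that sheet to the fibres outside it. FACIT collagens (fibril-associated, with interrupted triple helices) sit on the surface of fibrils, and transmembrane collagens are anchored in the cell membrane. In muscle most chains are made by fibroblasts, fibro-adipogenic progenitors and vessel cells.

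The libraries held 22241131 to 23163721 reads counted in genes. CPM below is the reads of a gene relative to all gene reads of its library (the usual CPM unit), without further scaling. Transcripts of muscle fibres (6 of 6 markers, among them Acta1 and Ckm) summed to 77488 to 97571 CPM with DMSO and 84426 to 101591 CPM with myriocin. Albumin (Alb), a liver protein, reached 63.9 to 85.6 CPM in DMSO replicates 4 and 5 and Myriocin replicate 4. Elsewhere it was at 4.44 to 20.6 CPM. Values without these 3 libraries are given beside some of the results.

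The collagen chains did not differ between the groups past the test's threshold. Of 36 members, 0 passed edgeR's quasi-likelihood test at an adjusted p under 0.05, where 0% of the 14117 genes tested passed in either direction. The smallest adjusted p of a member was 0.936. At an unadjusted p under 0.05 there was 1 member, Col6a6, which was higher with myriocin, against a background of 4.68% of all genes tested (2.33% higher and 2.34% lower). In 0 of 36 members did the groups not overlap, where the share over all genes was 0.602% (0.0638% higher and 0.538% lower). The log2 fold changes, myriocin minus DMSO, were positive for 27 members and negative for 9, with a median of 0.11, while over all genes tested 46.3% were positive and the median was -0.01. The intervals were wide: the median standard error (SE) was 0.22 for the members and 0.12 for all genes, and for 32 of 36 members the 95% interval lay within 1 log2 unit of 0. The median was 0.07 when Myriocin replicate 6 was left out, and was 0.18 with DMSO replicate 1 and 0.17 with Myriocin replicate 3 left out. Without Myriocin replicate 4, 5 members, all higher, had an unadjusted p under 0.05, against a background of 5.9% higher and 10.3% in either direction. The median was 0.25 without the 3 libraries with liver transcripts. There 7 members had an unadjusted p under 0.05, all higher, against a background of 4.05% higher and 7.12% in either direction. In that fit 0 passed the adjusted threshold. The libraries left out include DMSO replicate 5, with the highest summed collagen CPM of the DMSO group (1652). They also include Myriocin replicate 4, with the lowest sum of all libraries (972.3 CPM), and DMSO replicate 4 (1157 CPM), which lay below the DMSO mean of 1279 CPM. Without the 3 libraries the log2 fold change was higher for 28 of 36 members. The part of each library in this was not tested.

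**Figure D1:**
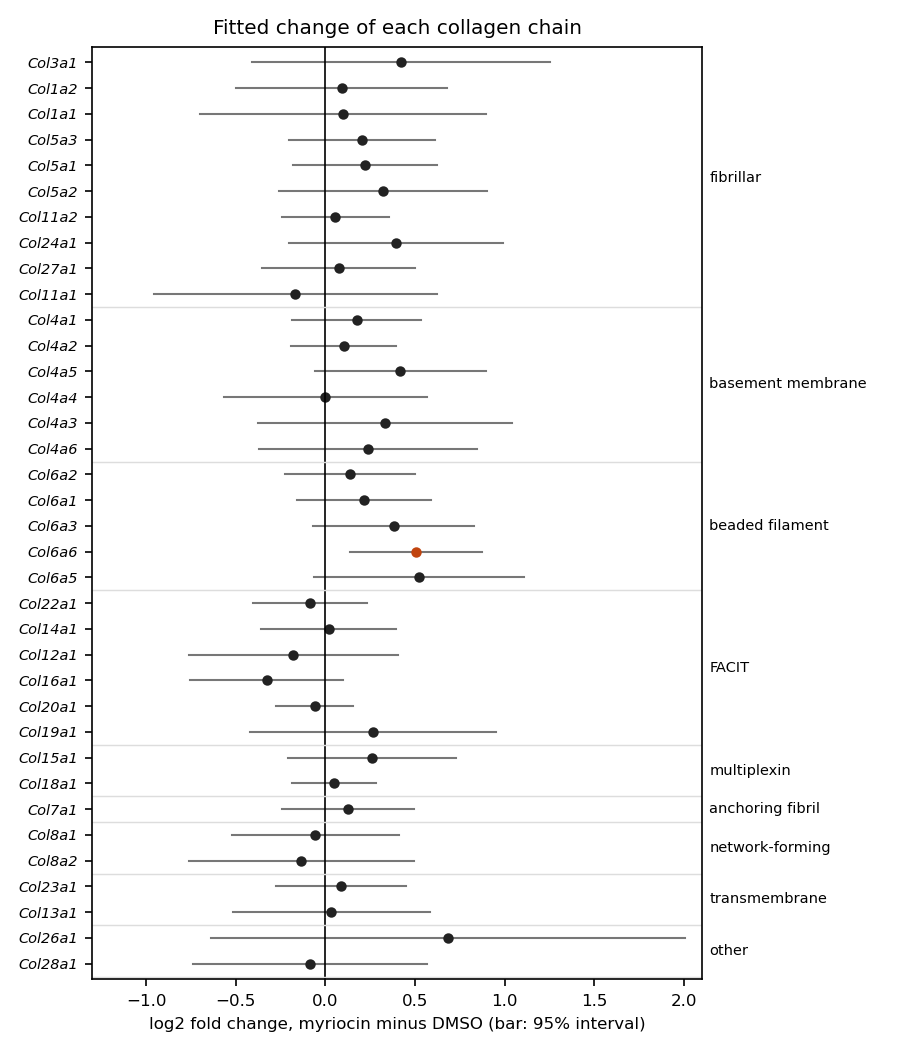
Fitted log2 fold change of each of 36 collagen chains (points; myriocin minus DMSO, 5 and 6 libraries) with its 95% interval (bars), grouped by collagen type. The interval of Col6a6 (coloured point) is the only one of the 36 that does not reach 0, and those of Col26a1, Col3a1, Col6a5 and Col4a3 extend past 1.

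Collagen transcripts took 0.0972% to 0.214% of the gene reads of a library. By type, fibrillar chains held 51.9% of the collagen CPM, basement membrane chains 21.0%, beaded filament chains 15.3% and FACIT chains 4.16%, while the 2 transmembrane chains held 0.311%. The 6 chains with the most reads held 68.8%. Corrected for length, as CPM per kb of annotated exon averaged over the 11 libraries, the order was Col1a1 (24.8), Col3a1 (21.7), Col4a1 (21.6), Col4a2 (17.01), Col1a2 (16.7) and Col6a1 (16.4). The next chain, Col6a2, was at 9.34, and the lowest, Col19a1, at 0.0698. The first 3 lay closer together than the spread of each over libraries, which was 42.9%, 46.9% and 21.4% (coefficient of variation of the CPM). The length joins the exons of all annotated transcripts of a gene, which need not be those present, so the order depends on it. In CPM alone, Col1a2 (207.7) lay above Col1a1 (162.5) and Col6a2 (77.8) above Col6a1 (71.8).

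**Figure D2:**
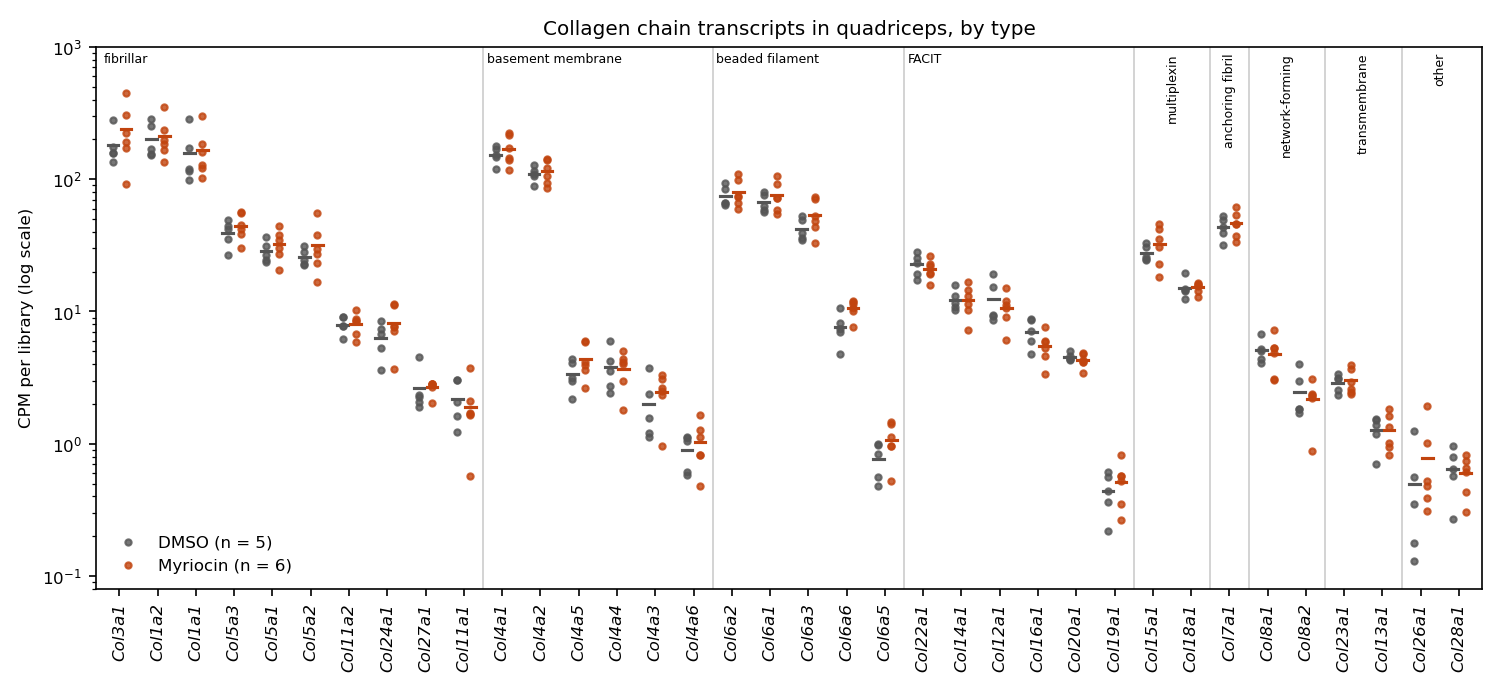
CPM of each collagen chain in each library on a log axis, DMSO in grey and myriocin in orange, with the group mean as a line and the types separated by vertical lines. The group means span from 0.439 CPM (Col19a1, DMSO) to 238.8 CPM (Col3a1, myriocin), and in every chain the 2 groups overlap.

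Among the fibrillar collagens, type I, the main collagen of tendon and muscle connective tissue, has 2 Col1a1 chains and 1 Col1a2 chain. Col1a1 (ENSMUSG00000001506, GRCm38 chromosome 11, 94936224 to 94953042, plus strand) stood at 172, 115, 98.7, 120.1 and 283 CPM in DMSO replicates 1 to 5, and the lowest, median and highest of the myriocin libraries were 102, 145 and 299 CPM. DMSO replicate 5 and Myriocin replicate 1 stood above the other 9 libraries, which lay between 98.7 and 185.9 CPM in both groups. The means of Col1a1 were 158 ± 75.2 (SD, n = 5) and 166 ± 71.7 (SD, n = 6) CPM, with a log2 fold change of 0.10 (SE 0.36, 95% interval -0.70 to 0.90). Its partner Col1a2 (ENSMUSG00000029661, GRCm38 chromosome 6, 4504814 to 4541544, plus strand) stood at 251, 155, 153, 169.5 and 287 CPM with DMSO, with 136, 191 and 349 CPM as the lowest, median and highest with myriocin. The log2 fold change of Col1a2 was 0.09 (SE 0.27, 95% interval -0.50 to 0.68), and only 2 of 6 myriocin libraries lay above the DMSO mean. Without Myriocin replicate 1 the values were -0.16 for Col1a1 and -0.12 for Col1a2, and without DMSO replicate 2 -0.0117 and -0.0092. Without DMSO replicate 5 they were 0.44 and 0.27, and without the 3 libraries with liver transcripts 0.50 and 0.30.

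Col3a1 (ENSMUSG00000026043, GRCm38 chromosome 1, 45311538 to 45349706, plus strand), the chain of type III collagen, forms thinner fibrils together with type I in soft tissue and vessel walls. It stood at 174, 136, 157, 159 and 282 CPM in DMSO replicates 1 to 5, and its lowest, median and highest values with myriocin were 91.8, 208 and 450.0 CPM. The myriocin group held both the lowest library of all (replicate 4) and the highest (replicate 1), a spread of 4.90-fold. The means of Col3a1 were 182 ± 57.6 (SD, n = 5) and 239 ± 124 (SD, n = 6) CPM, with a log2 fold change of 0.42 (SE 0.37, 95% interval -0.41 to 1.251). With single libraries left out, the value of Col3a1 ran from 0.13 (Myriocin replicate 1) to 0.65 (DMSO replicate 5), and it was 0.84 without the 3 libraries with liver transcripts. In CPM, the ratio of Col3a1 to Col1a1 was 1.01, 1.18, 1.59, 1.32 and 0.995 in DMSO replicates 1 to 5 and 1.504, 1.49, 1.67, 0.760, 1.39 and 1.63 in Myriocin replicates 1 to 6. The means were 1.22 ± 0.247 (SD, n = 5) and 1.41 ± 0.335 (SD, n = 6). The ratio thus overlapped between the groups, with the lowest value in a myriocin library.

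The type V chains, which set the diameter of type I fibrils, were each higher in the myriocin mean without passing the test. Their log2 fold changes were 0.22 for Col5a1 (SE 0.18), 0.32 for Col5a2 (SE 0.26) and 0.20 for Col5a3 (SE 0.19). Without Myriocin replicate 1 the values were 0.10, 0.08 and 0.12, without DMSO replicate 2 that of Col5a3 was 0.08, and without the 3 libraries with liver transcripts they were 0.46, 0.52 and 0.47. For each of them 4 of 6 myriocin libraries lay above the DMSO mean, and Myriocin replicate 4 lay below each DMSO library for Col5a1 and Col5a2. Col24a1, a minor fibrillar chain known from developing bone, had 6.30 ± 1.90 CPM (SD, n = 5) and 8.12 ± 2.88 CPM (SD, n = 6), a log2 fold change of 0.39 (SE 0.27) that was 0.23 without DMSO replicate 2. Of the type XI chains, partners of the cartilage fibril, Col11a1 was at -0.17 (SE 0.36) and Col11a2 at 0.05 (SE 0.14), and Col27a1, another chain of cartilage, at 0.07 (SE 0.20). Of the 10 fibrillar members 9 were positive (median 0.15, lowest -0.17, highest 0.42), and 0 reached an unadjusted p under 0.05. The summed fibrillar CPM was 655.4 ± 205.9 (SD, n = 5) in controls and 746.4 ± 296.6 (SD, n = 6) in treated libraries.

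In basement membranes, Col4a1 and Col4a2 join as 2 chains to 1 in the type IV network of nearly every basement membrane. Col4a1 (ENSMUSG00000031502, GRCm38 chromosome 8, 11198423 to 11312826, minus strand) stood at 178, 119.7, 169, 147 and 151 CPM in DMSO replicates 1 to 5, and with myriocin its lowest, median and highest values were 117, 159 and 223 CPM. The means of Col4a1 were 153 ± 22.4 (SD, n = 5) and 169 ± 43.1 (SD, n = 6) CPM, with a log2 fold change of 0.17 (SE 0.17, 95% interval -0.19 to 0.53). Col4a2 (ENSMUSG00000031503, GRCm38 chromosome 8, 11312805 to 11449287, plus strand) stood at 128, 88.2, 116, 110.3 and 106 CPM with DMSO and had 86.0, 114 and 142 CPM as the lowest, median and highest with myriocin. Its log2 fold change was 0.10 (SE 0.14, 95% interval -0.19 to 0.40). The values of Col4a1 ran from 0.07 (Myriocin replicate 1) to 0.25 (Myriocin replicate 4) and those of Col4a2 from 0.02 (DMSO replicate 2) to 0.17 (Myriocin replicate 4) as single libraries were left out. For both chains 3 of 6 myriocin libraries lay above the DMSO mean, Myriocin replicates 1 and 6 being highest and Myriocin replicate 4 lowest.

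The 6 type IV genes lie in 3 pairs that are read in opposite directions from neighbouring starts. The annotated starts are 21 bases apart for Col4a1 and Col4a2, 72 for Col4a3 and Col4a4 on chromosome 1 and 1309 for Col4a5 and Col4a6 on chromosome X. The first transcripts of Col4a1 and Col4a2 overlap by 22 bases at these starts. The stretch is shown because both genes begin in it: Col4a2 starts at its first base and Col4a1, on the other strand, at its last (RefSeq, GRCm38.p6, plus strand, chr8:11312805-11312826).
Col4a1 and Col4a2 starts: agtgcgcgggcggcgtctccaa
Without a stated strand setting in the counting, reads from these bases cannot be told apart, but they are 0.295% of the exon length of Col4a1. The ratio of Col4a1 to Col4a2 in CPM kept within 1.33 to 1.57 over the 11 libraries, while Col4a1 itself varied 1.91-fold.

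The chains of the other type IV networks, found in kidney, lung and some muscle basement membranes, were far less abundant per length. Col4a5 was at 0.582 CPM per kb, Col4a4 at 0.353, Col4a3 at 0.227 and Col4a6 at 0.122. Col4a5 had 3.35 ± 0.883 CPM (SD, n = 5) and 4.37 ± 1.33 CPM (SD, n = 6), a log2 fold change of 0.42 (SE 0.22), with 5 of 6 myriocin libraries above the DMSO mean. Col4a3 was at 0.33 (SE 0.33), Col4a6 at 0.24 (SE 0.28) and Col4a4 at -0.00 (SE 0.26). The ranges with single libraries left out were 0.17 (DMSO replicate 2) to 0.68 (DMSO replicate 3) for Col4a3 and 0.06 (Myriocin replicate 3) to 0.37 (Myriocin replicate 4) for Col4a6. Thus 5 of the 6 chains were positive, with a median of 0.21, and 0 passed at either threshold.

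Type VI collagen, which forms beaded filaments, is assembled from Col6a1, Col6a2 and a further chain, usually Col6a3, and defects in it cause muscle disease. All 5 kept members had positive log2 fold changes, from 0.14 to 0.52 with a median of 0.38, and 0 passed the adjusted threshold. Col6a1 stood at 80.2, 56.6, 58.8, 62.9 and 76.3 CPM in DMSO replicates 1 to 5, and with myriocin its lowest, median and highest values were 54.8, 71.9 and 106 CPM. The means of Col6a1 were 66.9 ± 10.7 (SD, n = 5) and 75.9 ± 19.7 (SD, n = 6) CPM, with a log2 fold change of 0.21 (SE 0.17, 95% interval -0.16 to 0.59). Col6a2 stood at 83.9, 65.8, 63.6, 65.8 and 94.2 CPM in DMSO replicates 1 to 5, and with myriocin its lowest, median and highest values were 59.8, 74.2 and 109 CPM. Its log2 fold change was 0.14 (SE 0.17, 95% interval -0.23 to 0.50). For Col6a1 4 of 6 and for Col6a2 3 of 6 myriocin libraries exceeded the DMSO mean, with Myriocin replicate 1 the highest of all and Myriocin replicate 4 the lowest. Leaving out single libraries, the log2 fold change of Col6a1 ran from 0.09 (Myriocin replicate 1) to 0.28 (DMSO replicate 1) and that of Col6a2 from 0.03 (Myriocin replicate 1) to 0.25 (DMSO replicate 5).

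Col6a3, Col6a5 and Col6a6 were lower in CPM than Col6a1 and Col6a2. Col6a3 stood at 42.2 ± 8.01 CPM (SD, n = 5) and 53.8 ± 16.0 CPM (SD, n = 6), a log2 fold change of 0.38 (SE 0.21, 95% interval -0.07 to 0.83). The ratio of Col6a3 to Col6a1 in CPM was 0.608 to 0.654 in the DMSO libraries. In Myriocin replicates 1 to 6 it was 0.694, 0.669, 0.737, 0.605, 0.736 and 0.780, so that 5 of 6 lay above each DMSO library and Myriocin replicate 4 below each. The ratio of Col6a1 to Col6a2 overlapped between the groups, at 0.810 to 0.957 with DMSO and 0.894 to 0.983 with myriocin. Those of Col1a1 to Col1a2 and of Col5a1 to Col5a2 overlapped too. Whether any ratio differed between the groups was not tested. Col6a6 (ENSMUSG00000043719, GRCm38 chromosome 9, 105687809 to 105828160, minus strand), an alternative to Col6a3 that is found in muscle, was the member with the smallest p. It stood at 10.7, 4.79, 7.05, 8.14 and 7.37 CPM in DMSO replicates 1 to 5 and had 7.64, 10.97 and 12.1 CPM as the lowest, median and highest with myriocin. All 6 myriocin libraries lay above the DMSO mean, but DMSO replicate 1 lay among them and Myriocin replicate 4 below DMSO replicate 4. The means of Col6a6 were 7.61 ± 2.12 (SD, n = 5) and 10.6 ± 1.64 (SD, n = 6) CPM, with a log2 fold change of 0.51 (SE 0.17, 95% interval 0.14 to 0.87). Its p in edgeR was 0.0105 before and 0.936 after adjustment over all genes, and over the alternatives its log2 fold change ran from 0.37 (without DMSO replicate 2) to 0.66 (without DMSO replicate 1). Col6a5, the neighbour of Col6a6 on chromosome 9, was near 1 CPM, at 0.767 ± 0.234 (SD, n = 5) and 1.07 ± 0.343 (SD, n = 6), with a log2 fold change of 0.52 (SE 0.27). Col6a4, on the same chromosome, had 0 to 3 counts per library and was not kept.

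Of 9 FACIT genes 6 were kept, and 4 of them were lower in the fit with myriocin and 2 higher (median log2 fold change -0.07). Whether this type differed from the others was not tested. Col22a1, a chain of the junction between muscle and tendon, stood at 25.5, 19.2, 17.3, 23.5 and 28.2 CPM in DMSO replicates 1 to 5 and had 15.9, 20.7 and 26.3 CPM as the lowest, median and highest with myriocin. Its log2 fold change was -0.09 (SE 0.15, 95% interval -0.41 to 0.23), and 1 of 6 myriocin libraries lay above the DMSO mean. Col14a1 stood at 10.2, 15.9, 13.0, 11.6 and 10.9 CPM in DMSO replicates 1 to 5, and with myriocin its lowest, median and highest values were 7.20, 12.2 and 16.7 CPM. The log2 fold change of Col14a1, a chain of fibril surfaces in tendon and muscle, was 0.02 (SE 0.17, 95% interval -0.36 to 0.39). Col16a1 had the largest negative value of all members, 7.05 ± 1.72 CPM (SD, n = 5) and 5.46 ± 1.44 CPM (SD, n = 6), at -0.33 (SE 0.20). Col12a1, which binds type I fibrils in tendon and muscle, was at -0.18 (SE 0.27), Col20a1 at -0.06 (SE 0.10) and Col19a1, under 1 CPM, at 0.27 (SE 0.32). Without Myriocin replicate 1 the value of Col19a1 was 0.08, and without Myriocin replicate 3 that of Col16a1 was -0.22. Col22a1 and Col12a1 changed sign when a control library was left out, Col22a1 without DMSO replicate 5 (0.0183) and Col12a1 without DMSO replicate 1 (0.0365).

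Of 4 transmembrane collagens 2 were kept. Col23a1 stood at 3.16, 2.35, 2.56, 3.07 and 3.37 CPM in DMSO replicates 1 to 5, and with myriocin its lowest, median and highest values were 2.39, 2.76 and 3.97 CPM. Its log2 fold change was 0.09 (SE 0.17, 95% interval -0.28 to 0.45), or 0.25 without the 3 libraries with liver transcripts. Col13a1 stood at 1.54, 0.697, 1.19, 1.52 and 1.39 CPM in DMSO replicates 1 to 5, and with myriocin its lowest, median and highest values were 0.826, 1.18 and 1.84 CPM. Col13a1, which clusters acetylcholine receptors at the nerve-muscle junction, had a log2 fold change of 0.03 (SE 0.26, 95% interval -0.52 to 0.59). The groups overlapped in both chains, and the sign of Col13a1 turned without scaling beyond the library total. Col17a1, the chain of the skin hemidesmosome, had 1 to 10 counts per library and Col25a1, which guides motor nerves to muscle, 0 to 5, so both were left out by the count minimum.

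Among the multiplexins, Col15a1 and Col18a1 are basement membrane proteoglycans whose ends release anti-angiogenic fragments. Col15a1 stood at 32.7, 25.0, 25.7, 24.6 and 31.0 CPM in DMSO replicates 1 to 5, and with myriocin its lowest, median and highest values were 18.1, 33.1 and 45.7 CPM. Its log2 fold change was 0.26 (SE 0.21, 95% interval -0.21 to 0.73), and Myriocin replicates 1 and 6 were highest as for Col4a1 and Col4a2. It was 0.14 without Myriocin replicate 6. Col18a1 stood at 19.5, 12.4, 14.9, 14.5 and 14.3 CPM in DMSO replicates 1 to 5, and with myriocin its lowest, median and highest values were 12.9, 15.7 and 16.5 CPM. Its log2 fold change was 0.05 (SE 0.11, 95% interval -0.19 to 0.28). Col7a1, the chain of the fibrils that anchor skin, was at 43.4 ± 8.28 CPM (SD, n = 5) and 46.4 ± 10.4 CPM (SD, n = 6). Col7a1 stood at 52.7, 31.8, 39.2, 49.4 and 43.9 CPM in DMSO replicates 1 to 5, and with myriocin its lowest, median and highest values were 33.7, 45.9 and 62.1 CPM. Its highest library was Myriocin replicate 3, in which Col1a2 had its lowest value, and its log2 fold change was 0.13 (SE 0.17, 95% interval -0.24 to 0.50), or 0.0227 without DMSO replicate 2.

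Col8a1 stood at 5.23, 4.05, 5.07, 4.37 and 6.74 CPM in DMSO replicates 1 to 5, and with myriocin its lowest, median and highest values were 3.03, 5.05 and 7.21 CPM. Col8a1, a short chain of vessel walls, was at -0.06 (SE 0.22, 95% interval -0.52 to 0.41). Col8a2 stood at 4.04, 1.83, 1.72, 1.82 and 2.97 CPM in DMSO replicates 1 to 5, and with myriocin its lowest, median and highest values were 0.875, 2.32 and 3.07 CPM. Its partner Col8a2 was at -0.13 (SE 0.29, 95% interval -0.76 to 0.49). Col26a1 stood at 0.351, 0.131, 0.176, 0.563 and 1.26 CPM in DMSO replicates 1 to 5, and with myriocin its lowest, median and highest values were 0.307, 0.502 and 1.94 CPM. Col26a1, at 3 counts in DMSO replicate 2, had the largest log2 fold change of the members in the fit of all libraries and the widest interval, 0.68 (SE 0.61, 95% interval -0.64 to 2.01). It was 0.16 without Myriocin replicate 1, where Col6a6 was larger (0.48), 1.38 without DMSO replicate 5 and 2.02 without the 3 libraries with liver transcripts. Col28a1 stood at 0.791, 0.958, 0.573, 0.649 and 0.270 CPM in DMSO replicates 1 to 5, and with myriocin its lowest, median and highest values were 0.306, 0.637 and 0.820 CPM. Col28a1, a chain of peripheral nerve, was at -0.09 (SE 0.30, 95% interval -0.74 to 0.57), or -0.35 without the 3 libraries with liver transcripts. The groups overlapped in each of these chains.

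The 8 genes under the count minimum include the cartilage chains Col2a1, Col9a1, Col9a2, Col9a3 and Col10a1. Just inside it lay Col26a1 (10 or more counts in 6 libraries) and Col19a1 (7 libraries), and just outside Col9a1 (5 libraries) and Col2a1 (4 libraries). Col2a1, the main collagen of cartilage, had 235 counts in DMSO replicate 2, 48 in Myriocin replicate 5, 22 in Myriocin replicate 4 and 5 to 12 elsewhere. Col10a1, the chain of growth plate cartilage, had 20, 28 and 4 counts in the same 3 libraries and 0 to 3 elsewhere. These are also the 3 libraries with the most neutrophil marker RNA (4 markers summed), at 424.6, 57.9 and 38.6 CPM against 1.05 to 21.2 CPM elsewhere. The 7 cartilage and bone markers summed to 12.2 to 27.1 CPM with DMSO and 9.50 to 16.3 CPM with myriocin, with Matn1 at 0 in all libraries. Of these markers, Ibsp was at 7.93, 1.0 and 1.49 CPM in DMSO replicate 2 and Myriocin replicates 5 and 4 and at most 0.173 CPM elsewhere, and Acan at 4.01, 1.13 and 0.483 CPM against at most 0.173 CPM. Whether another tissue contributed to these libraries was not tested. The type IX chains Col9a1, Col9a2 and Col9a3, which coat cartilage fibrils, had 3 to 18 counts per library.

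Collagen levels varied between libraries of the same group. Without Myriocin replicate 1 the log2 fold change was lower for 29 of 36 members, and without the 3 libraries with liver transcripts it was higher for 28. Myriocin replicate 1 was the highest library for 19 of 36 members, and Myriocin replicate 4 the lowest for 15 and DMSO replicate 2 for 10. In Myriocin replicate 6, 35 of 36 members lay above their mean log2 CPM, and in Myriocin replicate 4 only 6 did. Summed over members, collagen CPM was 1458, 1015, 1112, 1157 and 1652 in DMSO replicates 1 to 5 and 2136, 1244, 1103, 972.3, 1386 and 1704 in Myriocin replicates 1 to 6. The range within the myriocin group was thus wider than the distance between the group means, 1279 ± 266.4 (SD, n = 5) and 1424 ± 430.5 (SD, n = 6). The tenocyte markers (7 of 7 detected) summed to 225.7 to 522.0 CPM with DMSO and 130.8 to 379.5 CPM with myriocin, and those of fibro-adipogenic progenitors (8 of 8) to 1315 to 1915 CPM and 1191 to 1528 CPM. Macrophage markers (6 of 6) ranged from 91.0 to 120.5 CPM and from 62.3 to 147.4 CPM, the lowest being in Myriocin replicate 4 and the highest in Myriocin replicate 1. The part of these cells in the collagen values was not tested. In whole tissue, fewer cells of a type and less RNA per cell cannot be told apart.

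**Figure D3:**
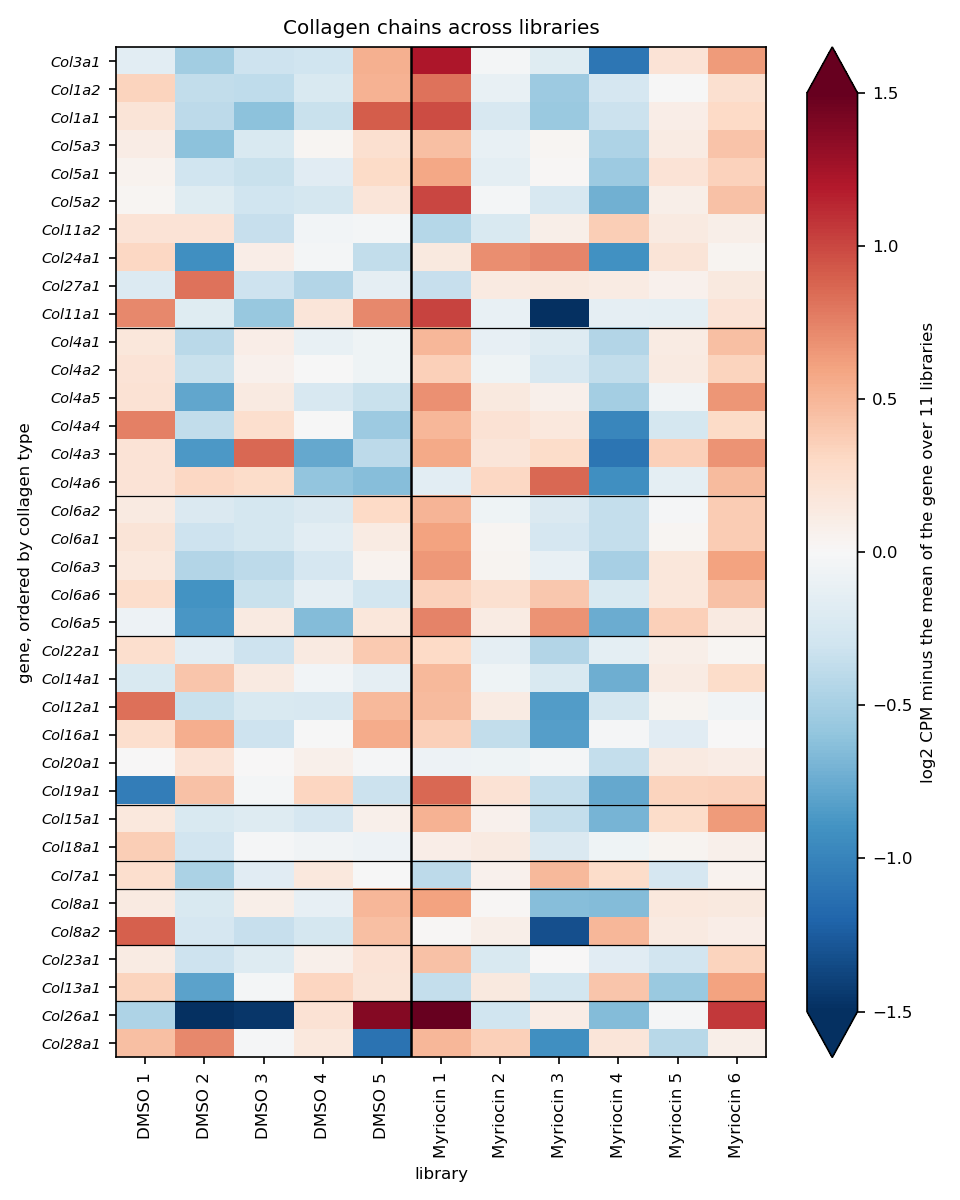
Log2 CPM of each collagen chain minus its mean over the 11 libraries (colour, red above and blue below the mean), genes by type in rows and libraries in columns, the vertical line dividing DMSO from myriocin. Myriocin replicates 1 and 6 are mostly red and Myriocin replicate 4 and DMSO replicate 2 mostly blue, across fibrillar, basement membrane and beaded filament chains.

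The main chains of collagen types I, IV, V and VI went together over the libraries. The pairs were singled out, and over all 630 pairs of members the median r was 0.36 (-0.79 to 0.98). The medians were 0.71 within basement membrane, 0.68 within beaded filament, 0.49 within fibrillar and 0.18 within FACIT chains. Col8a1 and Col8a2, also chains of 1 collagen, went together less closely (r = 0.39). For the type XI chains r is given with Col1a1 and not between them, at 0.84 for Col11a1 and -0.25 for Col11a2. Col8a2 and Col11a1 had low levels, with means of 2.32 and 2.03 CPM, so these values are less certain. Over 11 libraries, Pearson's r of log2(CPM + 1) was 0.97 for Col1a1 and Col1a2, 0.98 for Col4a1 and Col4a2, 0.92 for Col5a1 and Col5a2, 0.96 for Col6a1 and Col6a2 and 0.96 for Col6a1 and Col6a3. Spearman's rho was 0.97, 0.97, 0.95, 0.94 and 0.94 in the same order. The adjusted permutation p-values (2-sided, 100000 resamples, over 11 pairs) were 4.4e-05 for r in 4 of these 5 pairs, which rests on the smallest p the resamples can give (2e-05), and 1.1e-04 for the type V pair. Those for rho were 7.33e-05 for the type I and type IV pairs and 1.89e-04 for the other 3. Without the 2 libraries farthest from the median, r was still between 0.86 and 0.97, and after subtracting the group means between 0.92 and 0.98. Col1a1 and Col3a1, chains of different collagens, had r = 0.82 and rho = 0.83 (permutation, adjusted p 0.00335 and 0.00374), and 0.62 without DMSO replicate 5 and Myriocin replicate 1, so that part of the relation rests on those libraries. Col1a1 and Col4a1, from fibrils and basement membrane, had r = 0.61 and rho = 0.65 (permutation, adjusted p 0.052 and 0.0384). For this pair r was 0.17 within the DMSO libraries and 0.87 within the myriocin libraries. Whether these values differ was not tested. The libraries are shared by both axes of each relation, so their depth and tissue makeup are too.

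**Figure D4:**
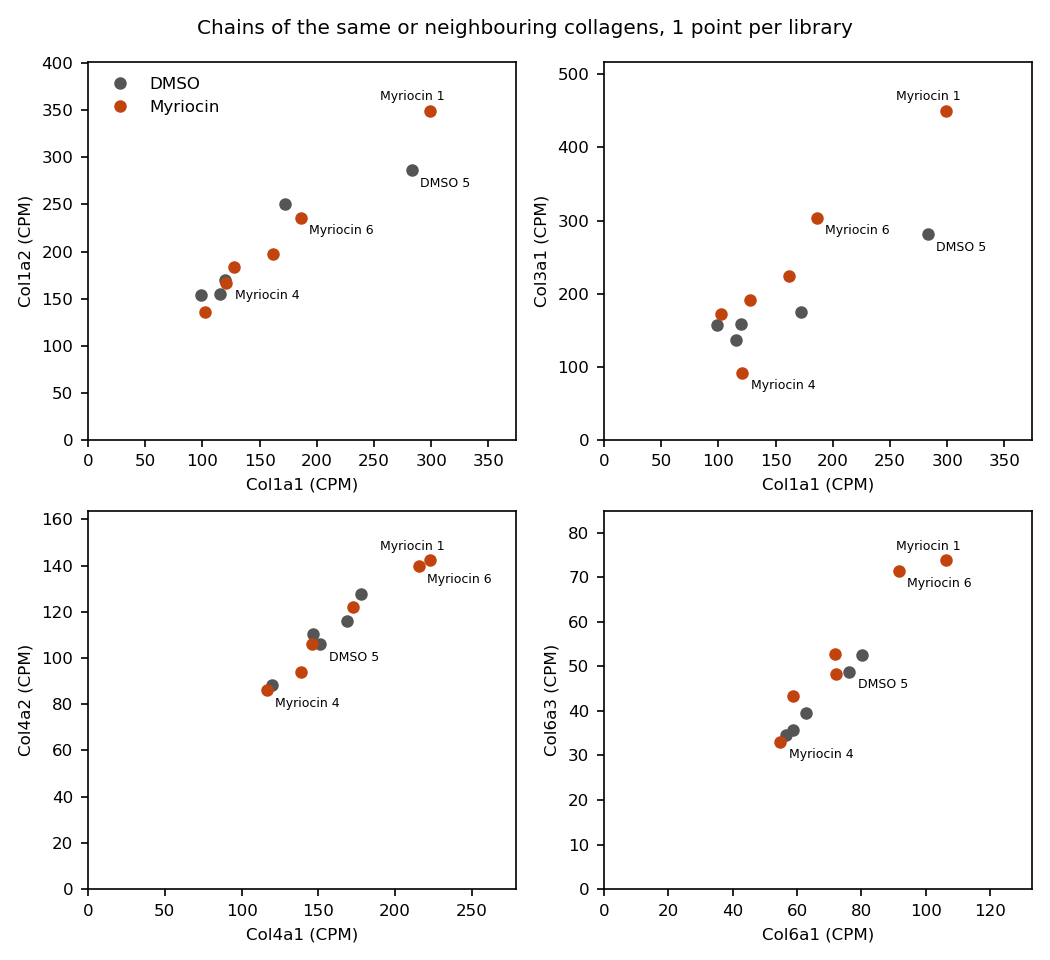
CPM of partner or neighbouring chains against each other, 1 point per library, DMSO in grey and myriocin in orange. Col1a1 with Col1a2, Col4a1 with Col4a2 and Col6a1 with Col6a3 lie near a line, while in the plot of Col3a1 on Col1a1 the libraries scatter more, Myriocin replicate 4 having the lowest ratio (0.760).

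Chains with like profiles differed in base composition before their starts. Col3a1 had r = 0.96 and rho = 0.96 with Col5a1 (permutation, adjusted p 4.4e-05 and 7.33e-05), and r = 0.90 and rho = 0.95 with Col6a3 (adjusted p 1.89e-04 and 1.1e-04). Without Myriocin replicates 1 and 4, r was 0.91 and 0.84. These pairs were chosen after seeing the data, out of the 630 pairs of members. Their p-values, adjusted over 11 pairs, do not account for that choice and so cannot serve as a test. The 250 bases before the RefSeq start of each (GRCm38.p6; for each 0 bases lie in an annotated exon) are shown to compare chains whose levels went together over libraries, with capitals marking 3 short motifs on either strand: the TATA box as TATAAA, the CCAAT box as its 5 letters, and the GC box as GGGCGG. Col3a1 is at chr1:45311288-45311537 on the plus strand, Col5a1 at chr2:27886175-27886424 on the plus strand and Col6a3 at chr1:90843972-90844221 on the minus strand.
Col3a1: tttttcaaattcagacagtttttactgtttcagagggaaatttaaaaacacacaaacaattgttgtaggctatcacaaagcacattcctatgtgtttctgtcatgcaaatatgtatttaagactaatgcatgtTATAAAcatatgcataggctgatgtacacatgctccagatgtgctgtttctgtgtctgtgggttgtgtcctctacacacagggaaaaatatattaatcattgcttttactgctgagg
Col5a1: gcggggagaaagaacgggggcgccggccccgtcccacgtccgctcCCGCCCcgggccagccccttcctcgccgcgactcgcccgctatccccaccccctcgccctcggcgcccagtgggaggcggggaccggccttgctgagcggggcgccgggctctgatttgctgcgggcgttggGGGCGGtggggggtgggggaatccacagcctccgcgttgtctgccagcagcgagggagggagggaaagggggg
Col6a3: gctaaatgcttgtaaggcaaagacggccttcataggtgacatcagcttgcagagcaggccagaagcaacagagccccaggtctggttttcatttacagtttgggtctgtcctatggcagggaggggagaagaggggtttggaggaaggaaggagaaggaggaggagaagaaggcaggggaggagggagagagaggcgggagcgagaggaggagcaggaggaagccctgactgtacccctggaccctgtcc
Col3a1 holds TATAAA at 117 bases before its start and 35.2% G and C, Col5a1 holds GGGCGG or its reverse complement at 205 and 73 bases before its start and 76.4% G and C, and Col6a3 holds none of the 3 at 57.2% G and C. Of 31 such windows found for 29 of the 36 members, 19 (61.3%) held GGGCGG, 9 (29.0%) CCAAT and 3 (9.68%) TATAAA. Over all 32851 windows of the same length the shares were 32.7%, 33.9% and 12.4%. No 2 matches overlap in the printed windows, and a match is a description of these letters only.

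Genes that make, cut and bind collagen were listed for comparison. Of 31 tested genes of collagen synthesis and assembly, 10 were positive and 21 negative in the fit (median log2 fold change -0.05), with 0 past the adjusted threshold. P3h4, a partner of the collagen lysine hydroxylases, stood at 6.47 ± 0.576 CPM (SD, n = 5) and 4.70 ± 0.711 CPM (SD, n = 6), at -0.42 (SE 0.12), each myriocin library lying below each DMSO library, as in 0.538% of all genes tested. Pcolce2, an enhancer of procollagen cleavage, was at -0.32 (SE 0.12). Serpinh1, the collagen chaperone, and Sparc, a collagen-binding matrix protein, were chosen after their values were seen. They were at -0.15 (SE 0.19) and -0.04 (SE 0.18), or 0.0141 and 0.11 without DMSO replicate 5, and over the 11 libraries had r = 0.78 and 0.88 and rho = 0.73 and 0.75 with Col1a1 (permutation, adjusted p 0.0066 and 0.00173 for r, 0.0166 and 0.0131 for rho). Without DMSO replicate 5 and Myriocin replicate 1, r was 0.72 and 0.62. The p-values do not account for the choice of these genes by their values and so cannot serve as a test.

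Of 15 tested genes of collagen degradation and its inhibitors, 6 were positive and 9 negative (median -0.03), with 0 past the threshold. The matrix metalloproteinase Mmp3 was at -0.88 (SE 0.33), from 1.48 ± 0.655 CPM (SD, n = 5) to 0.783 ± 0.399 CPM (SD, n = 6), and Mmp9 at -1.19 (SE 0.76), its DMSO replicate 2 being at 33.2 CPM and the other 10 libraries at 1.53 to 7.34 CPM. Without DMSO replicate 2 the value of Mmp9 was 0.0574, and without DMSO replicate 1 that of Mmp3 was -0.57. Mmp9 was at -1.96 without the 3 libraries with liver transcripts. Among 10 tested collagen receptors, 2 were positive and 8 negative (median -0.03), led by the integrin chains Itga1 (-0.13, SE 0.09) and Itga2 (-0.35, SE 0.28). In the basement membrane partners, 13 of 15 were positive, with a median of 0.10 and 0 past the threshold. Nid2, a nidogen that links laminin to type IV collagen, stood at 9.26 ± 2.48 CPM (SD, n = 5) and 13.9 ± 2.59 CPM (SD, n = 6), at 0.62 (SE 0.17; edgeR, adjusted p 0.936). Of 21 genes of TGF-beta signalling and its matrix targets, 8 were positive and 13 negative (median -0.04), and 0 passed. The ligand Tgfb3 was at -0.21 (SE 0.08) and Thbs1, which activates the latent ligand, at -0.63 (SE 0.27). Without DMSO replicate 2 the negative counts were 25 of 31 for synthesis, 8 of 15 for degradation and 6 of 10 for receptors. They were 5 of 15 for basement membrane partners and 14 of 21 for TGF-beta genes.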

How the data were processed

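For 11 quadriceps libraries the authors deposited a single table of read counts by Ensembl gene (total RNA, Direct-zol kit, DNBseq sequencing, per the labels' protocols). STAR 2.5.2b, HTSeq 0.6.0 and build GRCm38 are named in the submitters' processing notes; the strand setting, annotation release and read filters are not stated there, so reads of antisense genes cannot be told apart. Each column was assigned by its name, and 0 were left unassigned. The 5 HTSeq summary lines, 24.8% to 28.2% of the reads of a library, stayed out. Symbols, coordinates and exon lengths come from GENCODE M21 (GRCm38), matched by identifier for 53360 of 53465 genes. Exon bases are shared with another gene for 10 of the 36 members, at most 5.65% of the exon length (Col4a3).

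The test was run in R 4.3.3 with edgeR 4.0.16 (filterByExpr by group, TMM, robust quasi-likelihood F test, treatment as the single factor), with Benjamini-Hochberg adjustment over 14117 genes and a threshold of 0.05. All 36 members were tested. Each SE was obtained from the size of the log2 fold change and the root of its F statistic. Per-library CPM and ratios carry no TMM scaling (TMM factors 0.956 to 1.06). The test was checked on simulated counts. No 2 libraries of a group were copies: chi-square per degree of freedom was 8.18 to 44.2. SDs describe the spread over libraries.

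The members and lists were chosen with earlier results of these data known. Each DMSO value and the lowest, median and highest myriocin value are given for the 2 members with the highest CPM of each type and each member at an unadjusted p under 0.05. Col1a1 was added after its values were seen. Of each list the 2 genes with the smallest p are named, except where a gene is not reported here. Alternatives were other scalings, filters and tests (DESeq2 1.42.0, limma 3.58.1, sva 3.50.0), the replicate block and leaving out libraries.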

Additional observations from a re-analysis of the deposited data

Results flagged for a closer look

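In 72 groups tested (36 chains, each in both treatments), 3 libraries stood apart from the rest of their group by Dixon's test at the 95% level, where chance gives about 1 in 20 groups. Col3a1 was at 281.7 CPM in DMSO replicate 5, above the other DMSO libraries at 136.1 to 174.3 CPM. Col27a1, a minor fibrillar chain of cartilage, was at 4.53 CPM in DMSO replicate 2, above the others at 1.90 to 2.34 CPM. It was also low in Myriocin replicate 1, at 2.03 CPM against 2.70 to 2.85 CPM in the other myriocin libraries.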

How the results depend on the processing

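The number of collagen members past the adjusted threshold was 0 in each of the 24 alternatives and at a threshold of 0.10. Over all genes DESeq2 called 6, a fit with 1 surrogate variable 1 and edgeR 0. At an unadjusted p under 0.05 edgeR had 1 member. DESeq2 gave 2, limma-voom with sample weights 3 and the replicate block 3, where 659, 1104 and 509 of all genes reached that p (660 in edgeR). Leaving out the 3 libraries that held liver transcripts gave 7, and the count ran from 1 to 5 when single libraries were left out, the highest without Myriocin replicate 4 (background there 10.3%). Same-numbered libraries did not deviate together (correlations from -0.13 to 0.09), and the labels do not say that the numbers pair libraries. Such correlations cannot exclude a shared batch. The median log2 fold change was 0.11 in the main fit. It ran from 0.07 to 0.18 without single libraries and from 0.08 (replicate block) to 0.25 (without the liver transcript libraries) in the others. The median deviation of the members in a library had an SD of 0.28 within groups. That SD describes single libraries and not the error of a difference between groups, so it cannot show whether these shifts are small. Of the 36 members, 21 kept their sign in every alternative, and 15 did not. The sign turned without scaling for Col13a1 (-0.0009) and Col14a1 (-0.0203), without the filter for Col4a4 (0.0034), with limma-voom for Col4a4 (0.0094) and Col14a1 (-0.0156) and with sample weights for Col8a1 (0.0097) and Col13a1 (-0.0723). It turned with the block for Col13a1 (-0.10) and Col14a1 (-0.0672). Without the liver transcript libraries it turned for Col8a1 (0.16), Col11a1 (0.0481), Col11a2 (-0.0377), Col22a1 (0.10) and Col27a1 (-0.10). Leaving out single libraries gave ranges of -0.11 to 0.23 for Col4a4, -0.27 to 0.11 for Col8a2, -0.31 to 0.0365 for Col12a1, -0.10 to 0.12 for Col14a1, -0.16 to 0.44 for Col1a1, -0.12 to 0.27 for Col1a2 and -0.14 to 0.14 for Col13a1. They were -0.0317 to 0.16 for Col18a1, -0.27 to 0.0778 for Col28a1, -0.0367 to 0.13 for Col11a2, -0.0173 to 0.34 for Col27a1, -0.22 to 0.0793 for Col8a1, -0.17 to 0.0183 for Col22a1, -0.0138 to 0.16 for Col23a1 and -0.48 to 0.0231 for Col11a1. The cause was not tested.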

Other observations

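Markers of stromal and vessel cells mostly had lower values with myriocin, while 27 of 36 collagen chains had higher ones. Over all genes tested 46.3% were positive, and 0 marker genes passed edgeR's adjusted threshold. The count of higher chains ran from 23 (without Myriocin replicate 1) to 31 (without Myriocin replicate 3) as single libraries were left out. Many chains went together over libraries, so they are not separate results, and whether markers and chains differed was not tested. Of the fibro-adipogenic progenitor markers 7 of 8 were negative (median -0.13), led by Ly6a (-0.38, SE 0.13) and Pi16 (-0.43, SE 0.16). Both were at an unadjusted p under 0.05 in edgeR, as were the endothelial marker Cldn5 (lower) and the muscle fibre marker Ttn (higher). Over all genes tested, 2.34% were lower and 2.33% higher at that p. Of the tenocyte markers 6 of 7 were negative (median -0.15), with Comp at -0.88 (SE 0.48) and Fmod at -0.35 (SE 0.36). All 7 endothelial markers (median -0.15; Cldn5 at -0.51, SE 0.14, and Pecam1 at -0.16, SE 0.08) and all 7 tested smooth muscle and pericyte markers (median -0.15; Acta2 at -0.20 and Pdgfrb at -0.12) were negative. Schwann cell markers were negative in 5 of 6 (Prx at -0.26) and macrophage markers in 4 of 6 (C1qa at -0.19 and Mrc1 at 0.12). Adipocyte markers were negative in 5 of 6 (Cfd at -0.78, SE 0.59, and Cidec at -0.64, SE 0.54), but in 0 of 6 without DMSO replicate 2, where Cfd was at 0.10 and Cidec at 0.18. That library held 888.3 CPM of Cfd against 103.3 to 223.8 CPM in the other DMSO libraries. Negative too were both tested cartilage and bone markers (Alpl at -0.21 and Sox9 at -0.05). The 3 tested hepatocyte markers (Alb at -0.89, SE 1.003, and Apoa1 at -0.57, SE 1.07) and the 3 tested neutrophil markers (Csf3r at -0.91, SE 0.65, and S100a8 at -2.35, SE 1.69) were negative with wide errors. Without DMSO replicate 2, 0 of the 3 neutrophil markers were negative (Csf3r at 0.083, S100a8 at 1.64), and 2 of 6 macrophage markers were. S100a8 was at 150.4 CPM in DMSO replicate 2 and 0.09 to 6.49 CPM in the other DMSO libraries. Comp was at -0.47 without DMSO replicate 2 and Fmod at -0.13 without DMSO replicate 1. With the 3 libraries with liver transcripts left out, Comp was at -1.38, Cfd at -1.43 and S100a8 at -3.46. Muscle fibre markers were positive in 4 of 6 (Ttn at 0.26 and Mb at -0.29).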
